A study of Mus musculus with 2 samples.

Results

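Cbx7, Bmi1, Rnf2 and Jarid2 encode subunits of the Polycomb repressive complexes, and their transcripts were followed here in a pair of mouse samples labelled ES and EB. The 4 genes were chosen by name, with earlier results of these data known. Each bead array probe whose identifier holds a zero-padded NCBI Gene number of these genes was kept. That gave 4 probes, 1 for each gene, of 9796 named probes for 8102 genes and 46643 probes on the array. The labels give the ES group as mouse ES cells at day 0 and the EB group as mouse EB cells at day 4, with 1 sample and 1 array in each. They do not spell out either abbreviation, which commonly mean embryonic stem cells and the embryoid bodies they form when they differentiate as aggregates. The cell line, strain, medium and culture method are not given in the sources used here. Total RNA of each sample was labelled with biotin, and the design asks for a pairwise comparison of the samples. Without replicates no test of the difference between the groups was possible, and the errors below cover the beads of an array, not variation between cultures. Culture, array and group cannot be told apart.

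Polycomb proteins keep developmental genes silent through marks on histones. Polycomb repressive complex 1 (PRC1) attaches ubiquitin to histone H2A, and complex 2 (PRC2) methylates histone H3. In PRC1, RNF2 (also called RING1B) is a ubiquitin ligase, BMI1 (also called PCGF4) is one of the alternative PCGF partners that define the type of PRC1, and CBX7 is one of the alternative chromodomain proteins that read the methyl mark left by PRC2. JARID2 is an accessory subunit of PRC2, a Jumonji family protein without demethylase activity that helps to bring the complex to chromatin. CBX7 is known as the main chromodomain subunit of PRC1 in undifferentiated ES cells, and other CBX proteins take its place in differentiated cells.

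The probe sequences of the array are not analysed here. Polycomb complexes of mammals gather at unmethylated stretches rich in CpG, so the start regions of the genes were examined for CpG content, which the choice of genes did not use. RefSeq windows of 300 bases (250 before and 50 after a start, assembly GRCm38.p6) were found for 4 of 4 genes, with 2 windows for Jarid2. The windows of Cbx7 and Bmi1 are shown because the measured differences of these genes had opposite signs and the largest sizes among the 3 genes above background in at least 1 array. They lie at chr15:79932597-79932896 on the minus strand and chr2:18676768-18677067 on the plus strand. CpG dinucleotides are in capitals.
Cbx7: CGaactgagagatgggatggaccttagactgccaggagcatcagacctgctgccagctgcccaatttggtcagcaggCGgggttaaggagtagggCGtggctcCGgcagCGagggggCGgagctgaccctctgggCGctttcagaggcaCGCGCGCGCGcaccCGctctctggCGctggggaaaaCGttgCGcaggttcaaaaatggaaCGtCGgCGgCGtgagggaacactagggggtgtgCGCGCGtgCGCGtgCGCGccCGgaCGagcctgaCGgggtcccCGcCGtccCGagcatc
Bmi1: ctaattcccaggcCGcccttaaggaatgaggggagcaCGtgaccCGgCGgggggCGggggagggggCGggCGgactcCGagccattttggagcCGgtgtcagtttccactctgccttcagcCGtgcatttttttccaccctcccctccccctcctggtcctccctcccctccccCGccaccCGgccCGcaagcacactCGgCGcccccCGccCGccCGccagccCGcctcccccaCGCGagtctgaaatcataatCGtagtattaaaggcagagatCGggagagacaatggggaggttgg
The Cbx7 window holds 33 CpG, more than 91.4% of the 32851 windows in the table, and its observed CpG count is 0.99 times that expected from its C and G content. The Bmi1 window holds 23 CpG, with an observed over expected value of 0.71. The Rnf2 window holds 30 and the Jarid2 windows 24 and 23, against a median of 7 over all windows. All 5 windows of the 4 genes were thus above the upper quartile of 20. The letters CACGTG, the E-box that the variant PRC1 subunits MGA and MAX are known to bind and that reads the same on both strands, occur in the Bmi1 window, starting at position 36 from its 5′ end. They occur in 7.15% of all windows and in none of the other 4 windows here. The letters GCGGGAA, an E2F-type site searched on both strands, were found in 0 of the 5 windows and in 4.60% of all windows. These matches describe the letters, and the array measured no binding.

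Signal on these arrays is the mean brightness over the beads of a probe. Values below are quantile normalized over both arrays on the linear scale, and differences are log2 of EB minus log2 of ES. A normalized signal of 230.0 served as the signal floor, the level at which the deposited EB detection score passes 0.99. No such score is given for ES, so the level set in EB was applied to the normalized ES signals too. A fold is marked "at least" where the dimmer signal was under the floor and was replaced by it, and is left out where neither signal was above it. The size rule asked for a difference of 2-fold or more and a signal above the floor in at least 1 array. Of 3867 named genes above the floor, 351 (9.08%) passed it, 207 (5.35%) lower and 144 (3.72%) higher in EB. A median of 38 beads in ES and 37 in EB lay behind a signal. The labelled identities were checked on marker genes. Of 10 measured ES cell markers 9 were lower in EB, among them Nanog (5.26-fold), and 6 of 7 measured differentiation markers were higher. Of the higher ones Lhx1, Gata4, Lmo2 and Hba-x were under the floor in ES, so they could enter only through a higher EB signal. Likewise Sox2, Zfp42, Klf4, Dppa3 and Spp1 were under the floor in EB. The marker lists were chosen with earlier results of these data known, so the check is not independent of the data.

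**Figure D1:**
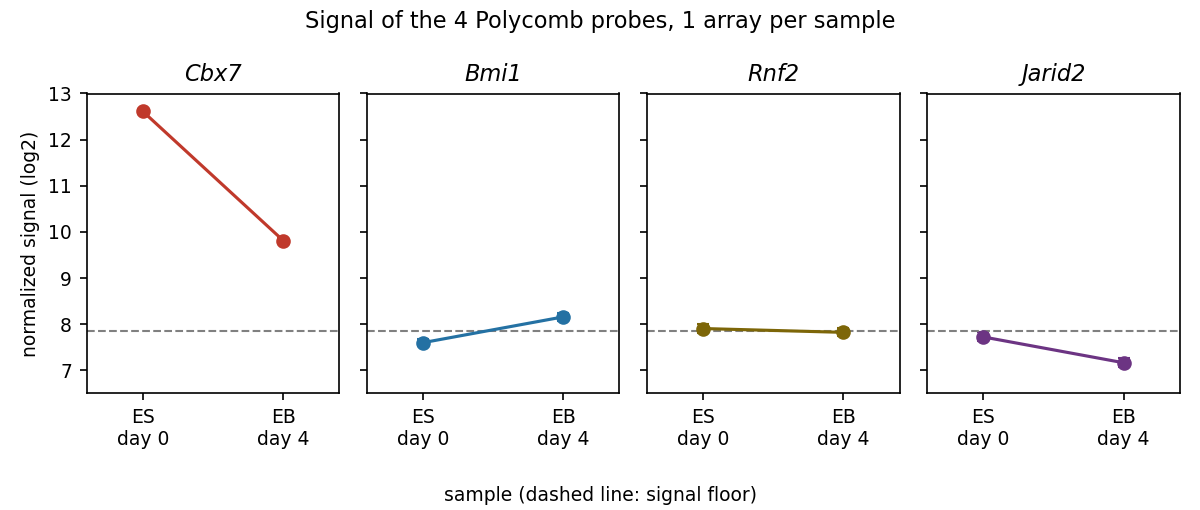
Normalized signal (log2 scale) of the probe of each gene in the ES sample at day 0 and the EB sample at day 4, with 1 array per sample; bars are bead-level standard errors, most of them smaller than the point, and the dashed line is the signal floor. Cbx7 lies well above the floor in both samples, at 6265 in ES and 900.2 in EB on the linear scale, while the other 3 probes lie at no more than 1.24 times the floor.

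Cbx7 (identifier scl052609.1_148-S) was bright in ES and much dimmer in EB. Its signal as deposited was 6088 in ES, from 31 beads with a standard error of 200.2, and 907 in EB, from 32 beads with a standard error of 34.3. After normalization the signals were 6265 and 900.2, the ES value being 27.2 times the floor and the EB value 3.91 times. Cbx7 was thus lower in EB and still measured there, above 89.6% of all probes. The difference was 6.96-fold, or -2.80 on the log2 scale with a bead-level standard error of 0.07 and a 95% bead-level interval from -2.94 to -2.66. Of the 3867 named genes above the floor, 14 had a more negative difference than Cbx7, and 23 (0.595%), Cbx7 included, differed by as much in either direction. In the series value table, the authors' processed version of the signals, Cbx7 had 6080 in ES and 718 in EB, or -3.08 as a log2 difference. In a sample of RNA from many cells, fewer cells that make a transcript and less of it per cell cannot be told apart.

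Bmi1 (scl0012151.1_305-S) had the opposite sign. Its deposited signal was 195.3 in ES and 278.3 in EB, with standard errors of 9.62 and 15.2 from 43 and 42 beads. The EB detection score was 0.9975, just past the limit. Normalized, the signals were 194.0 in ES, under the floor, and 285.8 in EB, above it, so that Bmi1 was at least 1.24-fold higher in EB. The log2 difference of 0.56 had a bead-level standard error of 0.11 and an interval from 0.35 to 0.77. It lay above 0 by more than the bead error and below the 2-fold rule. Its size depends on how signals under the floor are treated: with signals set to the floor it was 0.31. In the series value table, where dim signals are spread further apart, the Bmi1 values were 24.5 and 102.8 and the log2 difference was 2.07, past the 2-fold rule.

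Rnf2 (scl019821.1_18-S) showed no difference beyond the bead error. Its deposited signal was 245.2 in ES and 222.5 in EB, with standard errors of 17.6 and 13.4 from 28 and 31 beads, and its EB detection score was 0.98877. The normalized signals of 239.9 and 226.5 straddled the floor. The log2 difference was -0.08 with a bead-level standard error of 0.14, and its interval from -0.35 to 0.18 includes 0. A change of the transcript masked by background was not detectable with a probe this dim.

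Jarid2 (scl016468.18_47-S) lay under the floor on each array, so it was not among the genes counted as above it. Its deposited signal was 214.2 in ES and 144.3 in EB, with standard errors of 14.7 and 10.02 from 25 and 28 beads. The normalized signals were 211.5 and 143.5, or 0.92 and 0.62 times the floor, and the EB detection score was 0.231. The ES value was above 68.5% of all probes on its array and the EB value above 15.0%. The measured log2 difference of -0.56 (bead-level interval from -0.84 to -0.28) is a difference between levels near background, and no fold is given. With the values of the series table it was -1.73, and with normexp background correction -0.87. Jarid2 is known as a gene active in ES cells. RefSeq lists 4 curated transcripts each for Jarid2 and Rnf2 and 1 each for Cbx7 and Bmi1; which of them each probe targets is not stated in the files or labels, and whether a dim signal comes from little RNA or from the probe was not tested.

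**Figure D2:**
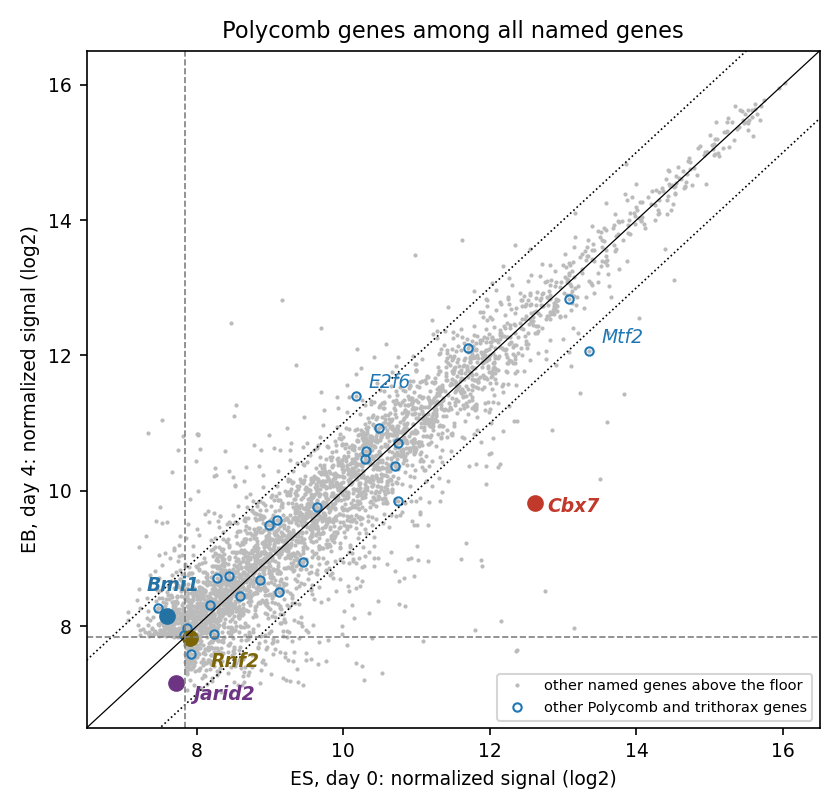
Normalized signal (log2) in EB against ES for the named genes above the floor in at least 1 array (grey), the other Polycomb and trithorax genes above it (blue circles) and the 4 Polycomb genes described (filled; Jarid2 is under the floor in both arrays). The solid line marks equal signals, dotted lines a 2-fold difference and dashed lines the floor; Cbx7, with signals of 6265 and 900.2, lies far below the lower 2-fold line, and Mtf2 and E2f6 lie outside the 2-fold lines.

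Over both samples, the genes most like each of the 4 were found by the distance between their pairs of log2 signals. Only named genes above the floor in at least 1 array were searched. No named gene lay within 0.5 log2 units of Cbx7. Its nearest were Pml, which organizes nuclear bodies, at a distance of 0.73 (signals of 3943 in ES and 1100 in EB), and Enah, an actin regulator, at 0.74 (4418 and 1309). Near the floor such likeness is common: 434 genes lay within 0.5 of Bmi1, 555 of Rnf2 and 60 of Jarid2. The nearest were Sowahc and Arrdc3 for Bmi1 (distances of 0.018 and 0.020), Nsd1 and Slc35a3 for Rnf2 (0.013 and 0.015), and Nmnat2 and Ero1b for Jarid2 (0.18 and 0.19). Genes under the floor in both arrays, where Jarid2 itself lies, were left out. The counts near the floor are thus incomplete, as are the nearest genes of Jarid2. Among those left out was S100a4, with 208.5 in ES and 142.55 in EB, against 211.5 and 143.5 for Jarid2.

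Polycomb and trithorax genes, the 4 genes described above included, were taken by complex. Lists of 74 genes held 40 with a named probe, of which 29 were above the floor in at least 1 array. Of these 29, 2 were lower by the 2-fold rule (Cbx7 and Mtf2), 1 was higher (E2f6) and 26 passed in neither direction. That is 10.3%, against 9.08% of all named genes above the floor. The median log2 difference was 0.05, against 0.06 over all 3867. The 3867 include these 29, and the difference between the group and the others was not tested. The 29 include Cbx7, Bmi1 and Rnf2, which were chosen with earlier results known. Without the 4 genes and the trithorax list, 20 genes were above the floor. Of these 20, 1 was lower and 1 higher by the rule (10%).

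**Figure D3:**
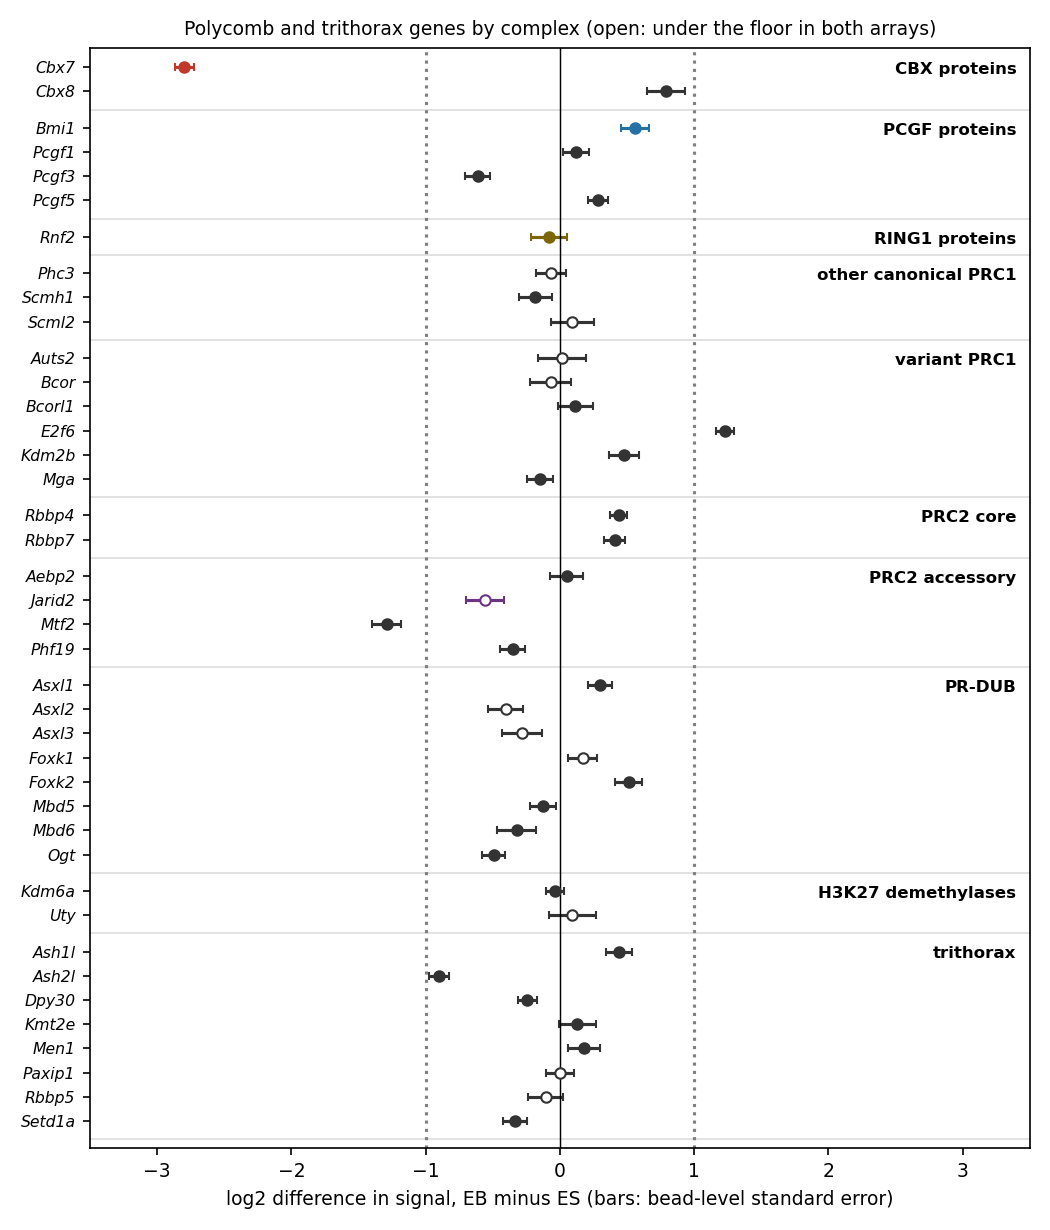
Log2 difference in signal, EB minus ES, for the brightest probe of each measured Polycomb and trithorax gene, by complex; bars are bead-level standard errors, dotted lines the 2-fold rule, and open points are under the floor in both arrays. Cbx7 (-2.80) and Mtf2 (-1.29) lie beyond the line on the lower side and E2f6 (1.23) on the higher side.

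Among the CBX proteins of PRC1, Cbx8 was the other measured member besides Cbx7. Its signal was under the floor in ES (178.2) and above it in EB (308.3), at least 1.34-fold higher. The log2 difference was 0.79, its bead-level standard error 0.14. Cbx8 thus had the opposite sign to Cbx7 without passing the 2-fold rule, which it did pass with normexp background correction (1.08) and with the series value table (2.79). The HP1 proteins, chromodomain relatives outside Polycomb that read another methyl mark of histone H3, had no member past the rule: the brightest probe of Cbx3 gave 0.46 (signals of 3132 and 4314) and the probe of Cbx1, under the floor in ES, 0.60.

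The PCGF partners that compete with BMI1 for RNF2 also stayed under the rule. Pcgf1, of the variant complex that KDM2B brings to CpG-rich DNA, read 799 in ES and 867 in EB, or 0.12 as a log2 difference. Pcgf5 gave 0.28 (1264 and 1539) and Pcgf3 -0.61 (559 and 365, with a bead-level standard error of 0.10). Scmh1, a further subunit of canonical PRC1, gave -0.18, and the probe of Phc3 was under the floor in both arrays. Ring1, the paralog of Rnf2, is not analysed here.

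Of the variant PRC1 genes E2f6, a repressive E2F factor of the complex with MGA and PCGF6, was higher in EB. Its brightest probe read 1151 in ES and 2703 in EB, 2.35-fold higher. On the log2 scale that was 1.23, with a bead-level standard error of 0.07. The other probes of E2f6 gave 1.02 and 0.77, so that its 3 probes had the same sign and 2 passed the rule. Its DNA-binding partner Mga gave -0.15. The 3 probes of Kdm2b, which binds unmethylated CpG, gave 0.48, 0.22 and 0.10, all under the rule.

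Within PRC2, Mtf2 (also called PCL2), an accessory subunit that binds CpG-rich DNA and belongs to a form of PRC2 other than that of JARID2, was lower in EB. Its signal was 10452 in ES and 4273 in EB, 2.45-fold lower. On the log2 scale that was -1.29, with a bead-level standard error of 0.11. Phf19, a relative of Mtf2, gave -0.35 (302 and 236, just over the floor in EB). Aebp2, the partner of JARID2 in its form of PRC2, was near the floor in both arrays (226.4 and 234.3, a difference of 0.05). The histone-binding subunits Rbbp4 and Rbbp7, which PRC2 shares with other complexes, gave 0.44 and 0.41. Ezh1, Ezh2, Eed and Suz12, the other core subunits, are not analysed here.

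Among the opposing activities 0 genes passed the rule in the main values, against 9.08% of all named genes above the floor. Their 3 lists held 5, 1 and 6 genes above the floor, too few to tell 0 from that share. Of 8 measured genes of the complex that removes ubiquitin from histone H2A and its partners, 5 were above the floor, with differences from -0.49 for Ogt to 0.51 for Foxk2. The second probe of Foxk2 gave -0.07. Kdm6a, a demethylase of the PRC2 mark, gave -0.04 (1717 and 1676). The trithorax list holds enzymes that methylate histone H3 at active genes, with related and partner proteins. Of its 6 genes above the floor, Ash2l came nearest to the rule at -0.90 (1724 and 923), and Dpy30 gave -0.25. With the series value table Ash2l (-1.06), Mbd6 of the ubiquitin-removing group (-1.30), Pcgf3 (-1.05) and Phf19 (-1.13) passed the rule on the lower side. With those values 995 of the 3867 named genes passed it in either direction, against 351 in the main values. In the main values Mbd6 gave -0.32, with 241.8 in ES, just over the floor, and 193.3 in EB, under it.

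Genes known as Polycomb targets in ES cells were read as a further list. Of 97 listed genes 33 had a named probe, and 24 of these were under the floor in both arrays. Of the 9 above it 7 were higher in EB and 0 were lower, against 3.72% higher and 5.35% lower over all named genes above the floor. Of the 9, 6 were above the floor in EB and not in ES, so that they could enter the count through a higher EB signal alone. Gata4 among them was at least 1.97-fold higher, so it passed the rule only with its ES signal not set to the floor. Those with the largest differences were Lhx1 (at least 9.16-fold), Hoxb2 (at least 7.78-fold), Fgf10 (7.14-fold), Eomes (7.06-fold), Wnt5a (at least 3.20-fold) and Gata3 (2.68-fold). All but Wnt5a and Fgf10, which encode secreted signals, are transcription factor genes. Since several of them were also differentiation markers, their count is not independent of the check on the labels.

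Markers of other cells were examined beside the lower EB signal of Cbx7. Of 12 fibroblast markers, which would mark feeder cells in an ES culture, 7 had a probe. Col1a2, Col3a1, S100a4, Dcn and Postn were under the floor in both arrays, while Col1a1 was 2.58-fold lower in EB and Acta2 had signals of 419 and 242. The summed signal of the 7 was 3845 in ES and 1998 in EB. Col1a1 alone gave 2602 and 1007 of this, and the 5 genes under the floor added background. Of 10 blood markers 6 had a probe and 4 were above the floor, all 4 of them higher in EB. Over all named genes above the floor 3.72% were higher. The 4 were above the floor in EB alone, so they could enter the count only through a higher EB signal. Nfe2 was at least 1.82-fold higher, so it passed the rule only with its ES signal not set to the floor. Hba-x and Lmo2 among the 4 were also counted as differentiation markers. All 6 were under the floor in ES, so their summed signal of 1080 there is background; it was 3598 in EB. The part of such cells in the differences of the 4 genes was not tested. Of 5 housekeeping genes above the floor, none passed the 2-fold rule, against 9.08% of all named genes above it. Their median difference was 0.04.

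Protein-coding genes that flank the 4 on their chromosomes in RefSeq were looked up after the data were seen, up to 2 on each side. Apobec3, next to Cbx7, was also lower in EB (518 against 243, or -1.09 on the log2 scale), while Rpl3, further along on the other side, gave 0.11. Swt1, near Rnf2, gave -0.21, and Niban1 on the other side -0.53, with an EB signal under the floor. Edem3, further along from Rnf2, and Dnajc1, the measured neighbour of Bmi1, had no signal over the floor on either array. The neighbours of Jarid2 are not analysed here.

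**Figure D4:**
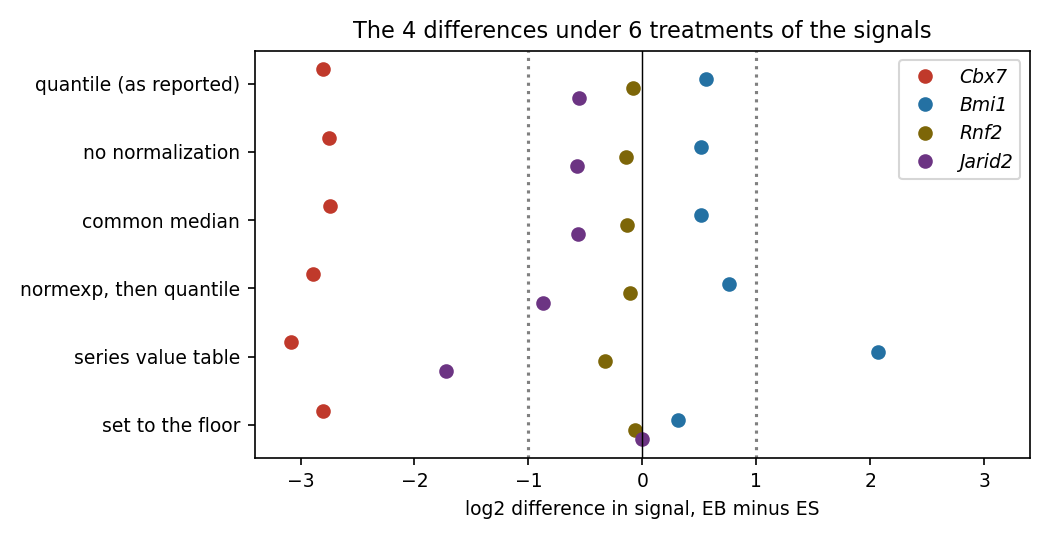
Log2 difference, EB minus ES, of the 4 genes (colours) under 6 treatments of the same signals; dotted lines mark a 2-fold difference. Cbx7 stays between -3.08 and -2.74, while Bmi1 ranges from 0.31 to 2.07, Jarid2 from -1.73 to 0 and Rnf2 from -0.33 to -0.06.

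Cbx7 was lower past the 2-fold rule under each of the 6 treatments, and it alone of the 4 was so. Bmi1 was positive in each, from 0.31 with signals set to the floor to 2.07 with the series value table. Rnf2 was negative in each but within 2-fold. Jarid2 became 0 with signals set to the floor, since both of its signals were under it.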

How the data were processed

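Each sample was measured on 1 array of a mouse bead chip. Per the file headers, the deposited signal intensity came from BeadStudio 2.3.41 with no normalization, although the sample titles call it normalised; BeadStudio 2, RMA and limma are listed in the submitters' processing notes with no role. The deposited bead counts and bead-level spread were used for errors. The spread fell with the bead count with a log-log slope of -0.44 in ES and -0.47 in EB at signals of at least 1000 (a standard error would give -0.5), and was read as a standard error. The deposited detection score was read from the EB file, and none is given for ES. Intensities were quantile normalized without background subtraction (Python 3.11.15, pandas 2.3.3), because the headers name no background step; unsubtracted background shrinks differences of dim probes. The score limit of 0.99 corresponded to a deposited signal of 225.7. Normexp correction used limma 3.58.1 in R 4.3.3 with an offset of 50.

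Gene names came from zero-padded identifier numbers of at least 10000, read as NCBI Gene numbers in a RefSeq table of GRCm38.p6: 9796 of 11857 such probes matched. The brightest probe stood for a gene. The rule for named genes took the Polycomb and trithorax genes past the size rule and others by kinship with the 4 genes. It also took the 6 Polycomb targets with the largest differences past the size rule. For each of the 4 it took the 2 nearest genes by signal among those above the floor. The 4 genes and the lists were chosen with earlier results of these data known. Ckb, a creatine kinase entered among the PRC1 genes by mistake, was removed after its values were seen (12430 in ES and 2077 in EB). The deposited series value table holds linear intensity of unstated processing (medians of 16.7 in both columns) and served as an alternative. The quantile step and the direction of changes were tested on simulated data. Only bright probes were changed and scored there, so the floor and dim signals such as those of Bmi1, Rnf2 and Jarid2 were not tested. No count of arrays allows a test, so none was run.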

Additional observations from a re-analysis of the deposited data

How the results depend on the processing

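No paired analysis was possible because there is a single array of ES and of EB, and none could be left out. With the series value table the log2 differences were -3.08 for Cbx7, 2.07 for Bmi1 and -1.73 for Jarid2; 9 Polycomb and trithorax genes passed the 2-fold rule (3 in the main values), and 995 named genes did, 527 higher and 468 lower, against 351 (144 and 207). With signals set to the floor Bmi1 gave 0.31 and Jarid2 0, by construction, and with normexp Jarid2 gave -0.87; the 2-fold counts were 3 and 306 with the first and 4 and 477 with the second. A 1.5-fold rule gave 6 Polycomb and trithorax genes and 942 in all, and a 4-fold rule 1 and 63, as their construction sets. With no or median scaling, the mean over probes or detection in both arrays, the 2-fold counts stayed at 3 and between 237 and 356. Bmi1, above the floor in EB alone, Rnf2, above it in ES alone, and Jarid2, above it in neither, have no value where detection in both arrays is required. Chosen after the data were seen, a looser ES detection limit (above that array's median of 173.9) left both counts at 3 and 351, of 35 and 5183 genes, and with Ckb kept 4 genes passed. Dim signals limit Bmi1, Rnf2 and Jarid2.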
